A study of Mus musculus with 2 samples.

Results

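Ptgds and 6 other genes of prostaglandin synthesis and breakdown were followed across the cell classes of the mouse spinal cord at postnatal day 4. The 7 genes were taken by symbol from the 32285 genes of the count files, and all 7 were found. The set was selected on measured values, namely the Ptgds counts of fibroblasts and astrocytes, where that gene differed most between the libraries, so the values of Ptgds in those cells are a description and carry no test.

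The cells came from 1 single-cell library labelled SMA, of mice of genotype mSmn-/-, hSMN22tg/0, and 1 labelled Con, of mice of genotype mSmn+/-, hSMN22tg/0. Both were FVB mice of postnatal day 4, untreated as far as the labels say, and all carried the human SMN2 transgene. SMA stands for spinal muscular atrophy, a motor neuron disease of too little SMN protein, and this Taiwanese model depends on the SMN2 transgene for the little SMN it makes. The SMA library is a pool of 3 animals and the controls were their heterozygous littermates, and no label tells the animals of a pool apart. There was 1 library per group, so no spread between replicates exists for any difference below, and every interval given here is a 95% interval of counting error only.

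Prostaglandins are short-lived lipid signals made from arachidonic acid. The cyclooxygenases turn arachidonic acid into prostaglandin H2, terminal synthases turn that into prostaglandin D2, E2 and others, and a dehydrogenase inactivates the products. In the nervous system lipocalin-type prostaglandin D synthase is best known as an abundant protein of the cerebrospinal fluid, made by the leptomeninges and the choroid plexus and, in mature tissue, by oligodendrocytes.

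Positions are from GENCODE M21 on GRCm38, and all 7 genes are protein-coding. Ptgds (ENSMUSG00000015090, chromosome 2, 25466709 to 25470046, minus strand) encodes the lipocalin-type prostaglandin D synthase. Hpgds (ENSMUSG00000029919, chromosome 6, 65117293 to 65144908, minus strand) encodes the haematopoietic prostaglandin D synthase, an unrelated enzyme for the same step. Ptgs1 (ENSMUSG00000047250, chromosome 2, 36230426 to 36252272, plus strand) and Ptgs2 (ENSMUSG00000032487, chromosome 1, 150100031 to 150108227, plus strand) encode the constitutive and the inducible cyclooxygenase. Ptges (ENSMUSG00000050737, chromosome 2, 30889471 to 30929863, minus strand) encodes the inducible microsomal prostaglandin E synthase. Ptges3 (ENSMUSG00000071072, chromosome 10, 128058954 to 128077272, plus strand) encodes p23, which was described as a cytosolic prostaglandin E synthase and is a co-chaperone of Hsp90. Hpgd (ENSMUSG00000031613, chromosome 8, 56294585 to 56321043, plus strand) encodes the dehydrogenase that inactivates prostaglandins.

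The promoters of Ptgds and Ptgs2 are shown because the fibroblast-like UMIs of these 2 genes lay mostly in different clusters. RefSeq promoters of 300 bases, 250 before and 50 after the start of the gene, were matched for 7 of the 7 genes on GRCm38.p6. Ptgds lies at chr2:25469700-25469999 on the minus strand, a window inside the GENCODE span of the gene because the RefSeq start lies downstream of the GENCODE one, and Ptgs2 at chr1:150099781-150100080 on the plus strand. Capitals mark a match to the AP-1 motif TGANTCA in Ptgds and to CGTCA, a part of the cAMP response element, in Ptgs2, both searched on both strands.
Ptgds: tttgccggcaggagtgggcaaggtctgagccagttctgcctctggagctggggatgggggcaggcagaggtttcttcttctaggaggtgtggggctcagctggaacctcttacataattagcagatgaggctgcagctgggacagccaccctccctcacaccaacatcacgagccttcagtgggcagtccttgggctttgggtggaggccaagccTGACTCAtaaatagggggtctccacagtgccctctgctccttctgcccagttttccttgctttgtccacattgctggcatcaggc
Ptgs2: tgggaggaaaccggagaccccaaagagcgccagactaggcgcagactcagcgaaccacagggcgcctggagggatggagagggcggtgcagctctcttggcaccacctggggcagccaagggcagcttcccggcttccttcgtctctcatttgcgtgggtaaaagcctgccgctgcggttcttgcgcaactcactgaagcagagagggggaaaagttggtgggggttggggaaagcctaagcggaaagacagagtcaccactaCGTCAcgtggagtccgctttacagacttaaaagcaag
The match began at base 216 of the Ptgds promoter and at base 264 of the Ptgs2 promoter, counted from 1 at the 5′ end. Among the 7 promoters TGANTCA was found in Ptgds only, and it was found in 7.81% of the 32851 promoters of that length. CGTCA was found in Ptgs2 and Ptges3, and in 20.8% of all promoters. The full element TGACGTCA was in 0 of the 7 and in 1.79% of all, and the E-box CANNTG was in 6 of the 7 and in 72.3% of all. A match is a match of letters and was not tested as a binding site.

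The SMA library held 26921 barcodes and the Con library 25419. Of these barcodes 8163 were listed in both, and the SMA copies were left out. The highest Ptgds cell of the Con library, with 553 Ptgds UMIs (unique molecular identifiers, each tagging 1 captured RNA), had an SMA copy with 86, which was 15.6% of the Ptgds UMIs beside 17.1% of all UMIs. The filters left 6787 cells labelled SMA (median 6109 UMIs) and 8921 labelled Con (median 6228 UMIs), with 45630633 and 59386040 UMIs in all. They formed 31 clusters, of which 29 were named as 14 classes by markers. These names were rebuilt here, hence "-like". Smn1, the gene targeted in this model, was at 51.7 and 50.5 CPM (UMIs scaled to 1e6 per class or library) outside erythroid-like and unnamed cells, a log2 ratio of SMA over Con of 0.03 (-0.05 to 0.12), so its level did not tell the libraries apart and SMA and Con are used below as labels. Over the same cells Xist was at 1.55 CPM in the SMA library and 615 CPM in the Con library, so the pools differed in sex.

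Ptgds was highest in fibroblast-like cells of both libraries among the 11 classes that had 50 or more cells from each. The 63 fibroblast-like cells labelled SMA held 21933 Ptgds UMIs, or 37224 CPM (36733 to 37720). The 601 labelled Con held 640, or 229 CPM (211 to 247). Its log2 ratio of 7.35 (7.23 to 7.46) ranked 1 among 4075 genes that had 100 or more UMIs in the class. At the rule of a log2 ratio of 1 or more with an interval off 0, 4.81% of those genes were higher in the SMA library and 12.8% were lower. Ptgds chose the set, so nothing is read from its own call.

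These UMIs lay in very few cells. In the SMA library 16 of 63 fibroblast-like cells had a Ptgds UMI (25.4%, 15.3 to 37.9), and 3 cells with 7882, 7597 and 4535 UMIs held 91.3% of the total. Ptgds made up 37.6%, 37.3% and 25.4% of all UMIs of those 3 cells. The next cells had 760, 724, 139, 103, 77, 46, 44 and 20 UMIs, then 1 cell had 2 and 4 had 1. In the Con library 5 of 601 cells had a UMI (0.832%, 0.271 to 1.93), with 553, 77, 7, 2 and 1, so that 1 cell held 86.4% of the total. The median cell had 0 UMIs in both libraries.

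**Figure D1:**
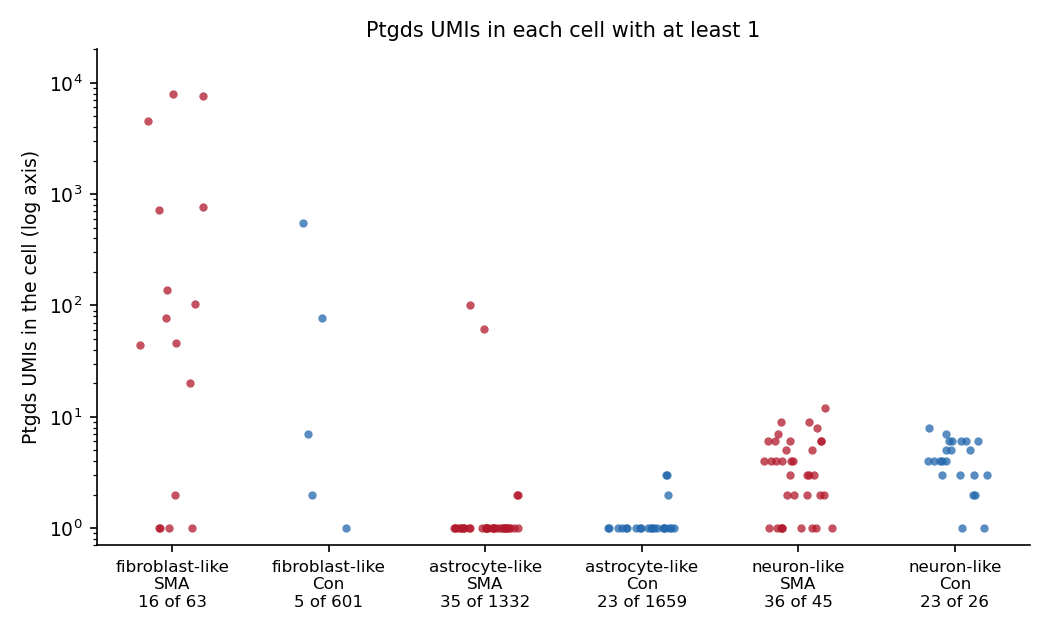
Ptgds UMIs per cell on a log axis, 1 point for each cell with at least 1 UMI, in fibroblast-like, astrocyte-like and neuron-like cells of the libraries labelled SMA (red) and Con (blue). The numbers under the groups are cells with a UMI of all cells. In fibroblast-like cells labelled SMA the points run from 1 to 7882 UMIs, while the neuron-like cells of both libraries stay between 1 and 12.

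The ratio depended on those cells, and its direction did not. Without the 3 SMA cells the log2 ratio was 3.98 (3.85 to 4.12). Without the 3 highest cells of each library it was 11.71 (10.16 to 13.98), since only 3 UMIs were then left in the Con library. Cells with at least 20 UMIs numbered 11 of 63 in the SMA library and 2 of 601 in the Con library. Thinned to 1000 UMIs per cell, which left out 0 SMA and 42 Con cells, 20.6% (11.5 to 32.7) and 0.537% (0.111 to 1.56) of fibroblast-like cells had a Ptgds UMI. Erythroid-like cells, which should lack the gene, had 0.261% and 0% (0 of 907 cells) after the same thinning, at median depths of 9590 and 9576 UMIs against 8890 and 3489 in fibroblast-like cells.

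The libraries did not hold the same fibroblast-like cells. Cluster 24, led by Slc6a13, Mfap4 and Aldh1a2, held all 63 SMA cells and 169 Con cells, and 11 of the 11 fibroblast markers were detected in it. Cluster 15, led by Mfap5, Timp1 and Pi16, held 0 SMA and 432 Con cells, with 9 of the 11 markers. Ptgds had 0 UMIs in cluster 15, which allows up to 2.21 CPM and a share of cells of up to 0.694%. Within cluster 24 Ptgds was at 37224 and 444 CPM, a log2 ratio of 6.39 (6.28 to 6.50). In that cluster 25.4% of SMA and 2.96% (0.967 to 6.77) of Con cells had a UMI.

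When the fibroblast-like cells were clustered again without the 7 genes and the lists of fibroblast layers, 1 sub-cluster of 47 SMA and 70 Con cells held 21931 of the 21933 SMA UMIs and all 640 Con UMIs. It was led by Serpind1, Wnt6 and Fgfbp1. Another 12 SMA and 28 Con cells of the class formed a sub-cluster whose leading genes included Olig2, Sox10 and Bcan, genes of the oligodendrocyte line, and it held 2 SMA and 0 Con Ptgds UMIs. In the sub-cluster led by Serpind1, Wnt6 and Fgfbp1, Ptgds was at 49266 and 1035 CPM, a log2 ratio of 5.57 (5.46 to 5.69). At least 20 Ptgds UMIs were seen in 11 SMA and 2 Con cells there. The summed level of 7 arachnoid fibroblast genes, among them Aldh1a2, Crabp2 and Slc6a13, was 2680 CPM in the SMA cells and 1475 CPM in the Con cells of this sub-cluster. Arachnoid barrier genes (568 and 283 CPM), perineurial genes (184 and 40.4 CPM) and endoneurial genes (1820 and 951 CPM) were also at higher sums in the SMA cells. Perivascular (3235 and 4120 CPM), pial (2406 and 3237 CPM), dural (757 and 973 CPM) and universal fibroblast genes (364 and 689 CPM) were at lower sums. The sums of 8 lists therefore went both ways, and the perivascular list had the highest sum in both libraries. The 3 cells with most Ptgds had 37, 15 and 15 UMIs of Slc6a13, a transporter of GABA and taurine, among 20957, 20373 and 17856 UMIs in all. The median SMA cell of cluster 24 was shallower, with a median of 10 Slc6a13 UMIs and of 8890 UMIs in all. They also had 191, 160 and 132 UMIs of Nnat, an imprinted gene of a small membrane protein. Their fibroblast markers summed to 3913, 3240 and 4536 CPM, below the median of 10198 CPM of the SMA cells of their cluster. Their astrocyte markers summed to 2195, 1865 and 2016 CPM (46, 38 and 36 UMIs), above the median of 1048 CPM of those cells. Only 4, 3 and 3 of the 10 astrocyte markers had a UMI, and Aqp4 had 0 in each. Of the 11 fibroblast markers 7, 9 and 9 had a UMI. Doublets were not called in these cells, and their part was not tested. Haemoglobin genes summed to 445 CPM in SMA and 19636 CPM in Con fibroblast-like cells, and to 7443 and 27406 CPM in astrocyte-like cells, and stray blood RNA was not tested either.

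The Con fibroblast-like cells also came from different animals of the pool. In cluster 15 a Y-linked UMI without Xist was seen in 1 cell and Xist without a Y-linked UMI in 246, so 0.405% (0.0102 to 2.23) were of the first kind. In cluster 24 the numbers were 87 and 15, or 85.3% (76.9 to 91.5). In Con astrocyte-like cells the share was 30.4% (27.9 to 33.0) and in Con Schwann-like cells 92.3% (86.3 to 96.2). The Con cell with 553 Ptgds UMIs had Xist and no Y-linked UMI, and of the remaining 87 UMIs 85 were in cells with a Y-linked UMI and no Xist and 2 in a cell with neither. Against Con fibroblast-like cells with a Y-linked UMI and no Xist the log2 ratio was 8.51 (8.20 to 8.83), and against those with Xist and no Y-linked UMI it was 6.04 (5.92 to 6.17). The part of sex and of single animals in the Ptgds difference was not tested.

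**Figure D2:**
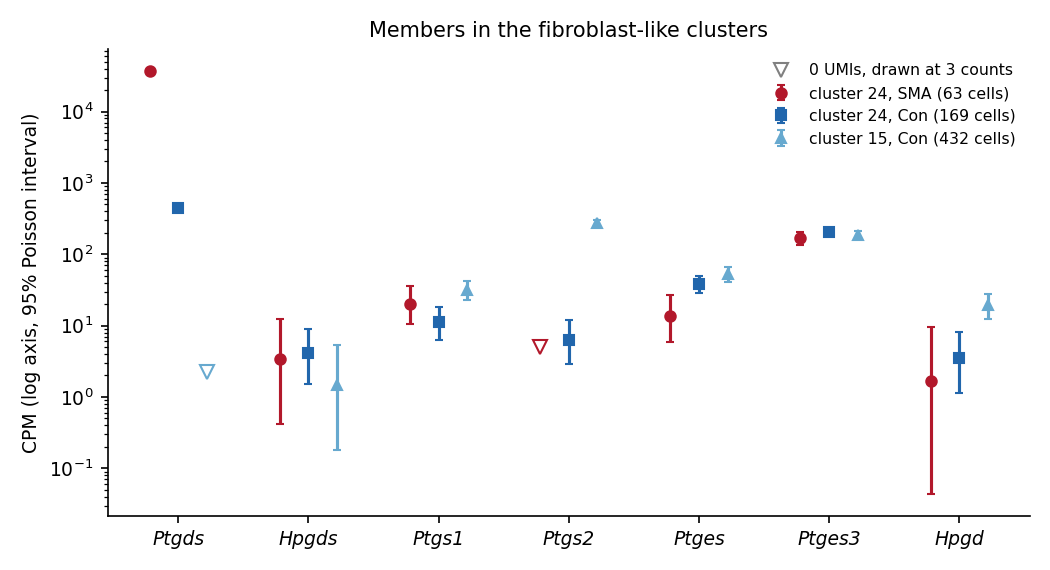
Levels of the 7 genes in CPM (log axis, 95% Poisson intervals) in the fibroblast-like cells, shown for cluster 24 in the libraries labelled SMA (red circles) and Con (dark blue squares) and for cluster 15, which held Con cells only (light blue triangles). Open triangles are genes with 0 UMIs, drawn at the level of 3 counts. Ptgds stands at 37224 CPM in SMA cells and at 0 UMIs in cluster 15, where Ptgs2 is highest at 270 CPM.

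Astrocyte-like cells had little Ptgds. The 1332 labelled SMA held 198 UMIs, or 23.3 CPM (20.1 to 26.7), and the 1659 labelled Con held 28, or 2.54 CPM (1.68 to 3.66). The log2 ratio of 3.20 (2.62 to 3.82) was the highest of 10175 genes in the class, of which 0.432% were higher in the SMA library by the same rule. Of the 198 UMIs, 2 cells held 101 and 62, or 82.3%. In the SMA library 2 cells had 2 UMIs and 31 had 1, and in the Con library the highest cells had 3. Without the 2 SMA cells the log2 ratio was 0.70 (-0.06 to 1.47), an interval that holds 0, and without the 2 highest cells of each library it was 1.04 (0.23 to 1.88). Thinned to 1000 UMIs, 0.376% (0.122 to 0.875) and 0.242% (0.0660 to 0.618) of astrocyte-like cells had a Ptgds UMI, at median depths of 5912 and 6057 UMIs, shares near those of erythroid-like cells.

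Both high cells carried astrocyte genes. Each had UMIs of 9 of 10 astrocyte markers, with sums of 6392 and 11134 CPM beside a median of 10634 CPM in the SMA cells of their cluster. Their fibroblast markers had 1 and 4 UMIs, and Slc6a13 had 0 and 2. On a second clustering of the astrocyte-like cells, both cells fell in 1 sub-cluster of 271 SMA and 322 Con cells, led by Cyp4f15, Zic1 and Wnt3. It held 169 SMA UMIs in 8 cells, which are the 101 and 62 UMIs of these cells and few others, and 1 Con UMI.

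Ptgds was also measured in glia of the oligodendrocyte line. OPC-like cells, the oligodendrocyte precursors, had 150 UMIs in 100 of 2054 SMA cells and 64 UMIs in 56 of 1798 Con cells. Their levels were 12.6 and 5.95 CPM and their log2 ratio 1.08 (0.65 to 1.52), in a class where 0.321% of 10901 genes were higher by the rule. The ratio was 0.90 (0.44 to 1.36) without the highest cell of each library and 0.52 (-0.10 to 1.21) against Con cells with a Y-linked UMI and no Xist. The precursors that had Ptgds most often were those of cluster 13, led by the Notch ligand genes Dll1 and Dll3, where 11.9% of 202 SMA and 9.42% of 276 Con cells had a UMI and the levels were 32.9 and 20.1 CPM with overlapping intervals. Oligodendrocyte-like cells had 63 UMIs in the SMA library, 32 of them in 1 cell, and 9 in the Con library, or 39.8 and 3.79 CPM. The log2 ratio of 3.40 (2.38 to 4.59) rested on under 100 UMIs, with median depths of 5556 and 1836 UMIs, and it ranged from 2.08 to 5.11 over the alternatives. COP-like cells, the committed precursors, had 17 and 25 UMIs, or 7.25 and 4.04 CPM.

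**Figure D3:**
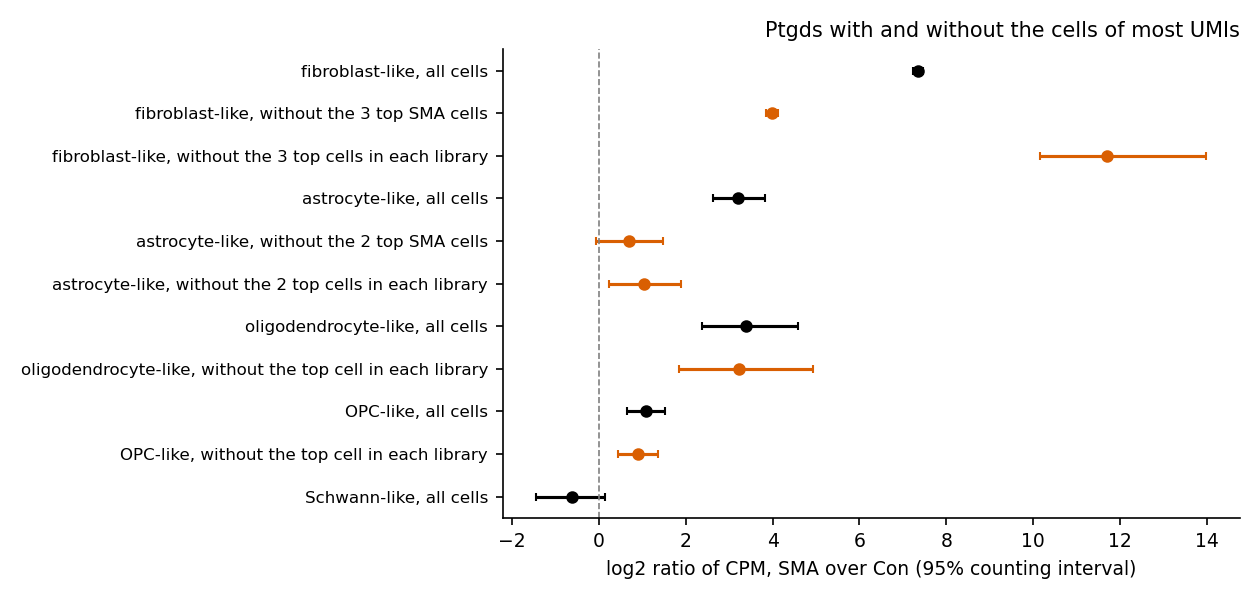
Log2 ratio of Ptgds CPM, SMA over Con, with 95% counting intervals, over all cells of a class (black) and without the cells of most Ptgds UMIs (orange). In astrocyte-like cells the ratio falls from 3.20 to 0.70 without 2 SMA cells, while in fibroblast-like cells it stays above 3 in each of the sets drawn.

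Schwann-like cells, the myelinating glia of the nerve roots, went the other way without a resolved difference. They had 19 UMIs in 91 SMA cells and 64 in 210 Con cells, at levels of 21.6 and 33.2 CPM. This gave a log2 ratio of -0.62 (-1.44 to 0.14), and 23 of the 64 Con UMIs were in 1 cell.

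Neuron-like cells showed another pattern, although 45 SMA and 26 Con cells were under the minimum of 50 cells kept for comparisons. They formed cluster 31, led by Snhg11 and Pkd2l1, the second a channel gene of neurons that contact the cerebrospinal fluid. Ptgds had 140 UMIs in the SMA cells and 98 in the Con cells, or 354 CPM (298 to 418) and 372 CPM (302 to 453). A UMI was found in 36 of 45 SMA cells (80.0%, 65.4 to 90.4) and in 23 of 26 Con cells (88.5%, 69.8 to 97.6). The median cell had 2 UMIs in the SMA library and 4 in the Con library, and the highest had 12 and 8. Thinned to 1000 UMIs, 24.4% and 30.8% of these cells had a UMI. The intervals of the libraries overlapped in level and in share.

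The other classes had few Ptgds UMIs. Microglia-like, endothelial-like, ependymal-like, mural-like and erythroid-like cells had between 2.70 and 5.87 CPM in the SMA library and between 0.156 and 4.54 CPM in the Con library. In erythroid-like cells 10 UMIs were found in the SMA library and 4 in the Con library, or 2.81 and 0.481 CPM. Microglia-like cells held 21 and 1. In log2, SMA over Con was 2.55 (0.75 to 4.67) in the first class and 4.12 (1.48 to 9.49) in the second. Both rest on under 100 UMIs, and both intervals overlap those of OPC-like (0.65 to 1.52) and astrocyte-like cells (2.62 to 3.82). Erythroid-like cells should lack the gene, and the source of their higher SMA level was not tested. For endothelial-like, ependymal-like and mural-like cells the interval held 0. Ependymal-like cells, at 4.54 CPM (1.48 to 10.6) in the Con library, stood above the erythroid-like cells of that library (0.131 to 1.23), and in the SMA library the intervals of these classes, 5.87 CPM (3.28 to 9.68) and 2.81 CPM (1.35 to 5.17), overlapped. Below the fibroblast-like cells the SMA order was oligodendrocyte-like, astrocyte-like, Schwann-like and OPC-like cells. Astrocyte-like cells overlapped with Schwann-like cells and Schwann-like with OPC-like cells, while astrocyte-like and OPC-like cells did not overlap. This order by level rests on single cells, since 1 cell held 32 of the 63 oligodendrocyte-like UMIs and 2 cells held 82.3% of the astrocyte-like UMIs. By the share of cells with a UMI, OPC-like cells (4.87%, 3.98 to 5.89) stood above astrocyte-like cells (2.63%, 1.84 to 3.64), and after thinning the shares were 1.27% and 0.376%. In the Con library Schwann-like cells came next after fibroblast-like cells, then OPC-like cells, whose interval overlapped that of ependymal-like cells and lay above those of astrocyte-like, erythroid-like and microglia-like cells.

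Set beside stray fibroblast RNA, the ratio of Ptgds to other fibroblast transcripts was not the same in every class. For each 100 UMIs of the 11 fibroblast markers, fibroblast-like cells held 345 (335 to 354) Ptgds UMIs in the SMA library and 0.857 (0.792 to 0.927) in the Con library. Astrocyte-like cells held 15.7 (13.4 to 18.3) and 1.65 (1.10 to 2.40). OPC-like cells held 110 (86.9 to 140) and 32.0 (23.8 to 42.6). Erythroid-like cells, which should lack the gene, held 55.6 (22.9 to 127) and 3.57 (0.956 to 9.40), and microglia-like cells 13.6 (8.21 to 21.6) and 0.581 (0.0146 to 3.28). In the SMA library the ratio of astrocyte-like cells was thus within the interval of microglia-like cells and below that of erythroid-like cells. Mural-like cells held 0.431 and 0.0716, and neuron-like cells 26.9 and 92.5. The fibroblast markers themselves were at 148 and 153 CPM in astrocyte-like cells and at 11.4 and 18.6 CPM in OPC-like cells. In neuron-like cells they were at 1316 CPM in the SMA library and 402 CPM in the Con library. The part of stray RNA in the Ptgds of these classes was not tested.

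**Figure D4:**
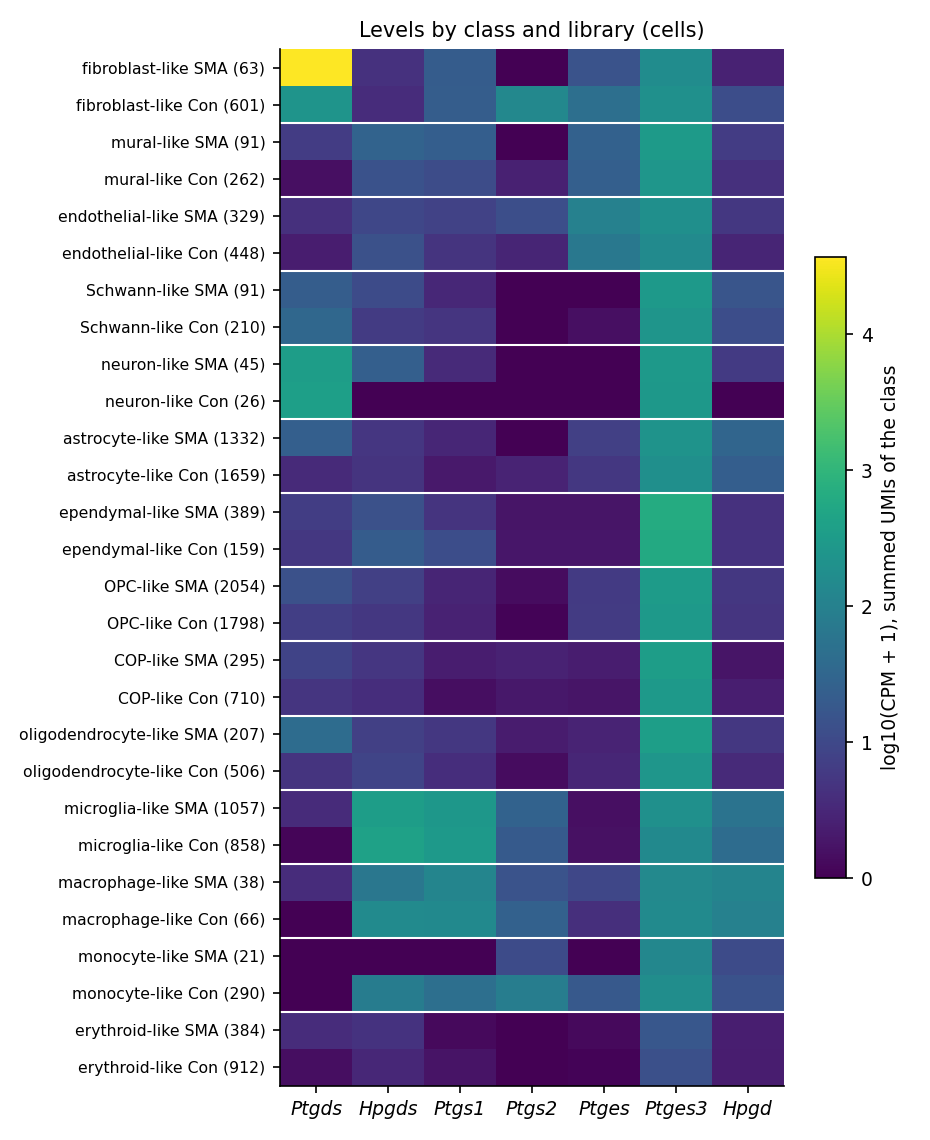
Levels of the 7 genes as log10(CPM + 1) of the summed UMIs, by class and by library, with the number of cells in parentheses. Ptgds is brightest in fibroblast-like cells labelled SMA (37224 CPM) and next in neuron-like cells of both libraries, Hpgds and Ptgs1 in microglia-like cells, Ptges in endothelial-like cells, and Ptges3 is seen in every class.

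Hpgds, the other prostaglandin D synthase, was a gene of microglia-like cells. It had 2697 UMIs in 931 of 1057 SMA cells and 2595 in 783 of 858 Con cells, or 347 and 404 CPM, which gave a log2 ratio of -0.22 (-0.30 to -0.14). After thinning, 29.2% and 34.3% of microglia-like cells had a UMI, against 0.261% and 0.551% of erythroid-like cells. Macrophage-like cells had 156 CPM in 66 Con cells and 63.2 CPM in 38 SMA cells, a number under the minimum. In fibroblast-like cells, the class of highest Ptgds, Hpgds had 2 and 8 UMIs.

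Ptgs1 followed the same classes as Hpgds. Microglia-like cells had 2003 UMIs in 848 SMA cells and 1796 in 713 Con cells, or 257 and 280 CPM at a log2 ratio of -0.12 (-0.21 to -0.03). Macrophage-like cells had 121 and 145 CPM. All other classes with at least 50 cells in both libraries were at or below 21.8 CPM, and fibroblast-like cells had 20.4 and 21.1 CPM in 12 and 51 cells with a UMI.

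Ptgs2 was highest in cluster 15, the fibroblast-like cluster with 0 Ptgds UMIs. Of 376 UMIs in Con fibroblast-like cells, 367 lay in cluster 15, at 270 CPM (243 to 300), in 130 of 432 cells (30.1%, 25.8 to 34.7). The highest 3 cells held 9.54% of these UMIs. Cells of cluster 15 had a median of 2804 UMIs and a mitochondrial share of 2.09%, beside 8439 UMIs and 6.29% in the Con cells of cluster 24, and the part of this difference was not tested. Among its sub-clusters the level was highest, at 673 CPM, in 53 cells led by Nos2, H2-Q10 and Inhba. Cluster 24 had 9 UMIs in 8 Con cells and 0 in the SMA cells, which allows up to 5.09 CPM and a share of up to 4.76%. The sub-cluster that held Ptgds had 7 Ptgs2 UMIs in its Con cells and 0 in its SMA cells. Over the whole class Ptgs2 was at least 26.4-fold lower in the SMA library, a log2 bound of -4.72 that was -1.64 after thinning to 1000 UMIs and -0.30 within cluster 24. Within cluster 24, the cluster of both libraries, no difference was detectable at this depth. Of the 367 UMIs in cluster 15, 243 were in cells with Xist and no Y-linked UMI, 124 in cells with neither and 0 in the cell with a Y-linked UMI.

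Among the other classes Ptgs2 was measured in Con monocyte-like cells at 85.8 CPM (64.1 to 112), of which 21 cells in the SMA library were too few to compare. Microglia-like cells had 206 UMIs in 84 SMA cells and 121 in 60 Con cells, at levels of 26.5 and 18.8 CPM. Their log2 ratio was 0.49 (0.16 to 0.83), and it was -0.02 (-0.48 to 0.46) against Con cells with a Y-linked UMI and no Xist. In endothelial-like cells 28 and 7 UMIs were found, at 11.3 and 1.92 CPM, with a log2 ratio of 2.56 (1.33 to 4.00) on under 100 UMIs. Erythroid-like cells had 0 UMIs in both libraries. Astrocyte-like cells had 0 UMIs in the SMA library and 21 in 9 cells of the Con library.

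Ptges was highest in endothelial-like cells, followed by mural-like cells (25.5 CPM) in the SMA library and by fibroblast-like cells in the Con library, where mural-like cells had 23.0 CPM. Endothelial-like cells had 255 UMIs in 159 of 329 SMA cells and 242 in 155 of 448 Con cells, at levels of 103 and 66.2 CPM. SMA over Con this was 0.64 (0.38 to 0.90) in log2, and after thinning 15.2% and 8.04% of the cells had a UMI. In fibroblast-like cells the direction was opposite, with 8 UMIs in the SMA library and 126 in the Con library, 13.6 and 45.0 CPM, a log2 ratio of -1.73 (-2.97 to -0.71). Within cluster 24 it was -1.49 (-2.77 to -0.41). In the sub-cluster that held Ptgds the level was 15.7 CPM in SMA and 12.9 CPM in Con cells, from 7 and 8 UMIs. Another sub-cluster, of 4 SMA and 73 Con cells led by Col9a1, Tff3 and Foxd2os, held 44 of the 126 Con UMIs, at 73.8 CPM. Ptgds had 0 UMIs in the cells of that sub-cluster in both libraries.

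Ptges3 was found in every class, with 11.9 to 16.6 CPM in erythroid-like cells and up to 636 CPM in SMA ependymal-like cells and 605 CPM in Con ones. All 11 classes compared had at least 100 UMIs. The log2 ratio was above 0 in 10 of them, with an interval off 0 in 8, and ranged from -0.21 in fibroblast-like to 0.51 in oligodendrocyte-like cells. The largest values with an interval off 0 were 0.51 (0.34 to 0.68) in oligodendrocyte-like cells and 0.45 (0.33 to 0.56) in microglia-like cells, and none of the 11 reached a log2 ratio of 1 over all UMIs. Scaled by median-of-ratios size factors in place of all UMIs, the ratio kept its sign in each of the 11 classes. It turned in astrocyte-like and endothelial-like cells on thinning to 1000 UMIs (-0.03 and -0.06), and in fibroblast-like cells it fell from -0.21 to -1.01 there. It also turned in ependymal-like cells against Con cells with a Y-linked UMI (-0.12), and in erythroid-like cells against Con cells with Xist (-0.41).

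Hpgd, the enzyme of breakdown, was highest in macrophage-like cells, with 115 CPM in 38 SMA cells and 99.5 CPM in 66 Con cells. Microglia-like cells had 428 UMIs in 245 SMA cells and 258 in 173 Con cells, at levels of 55.0 and 40.2 CPM and a log2 ratio of 0.45 (0.23 to 0.68). In astrocyte-like cells 252 UMIs in 170 SMA cells and 243 in 196 Con cells gave a log2 ratio of 0.43 (0.17 to 0.69). The share of cells with a UMI after thinning was close in both classes, at 4.92% and 4.66% in microglia-like cells and 3.01% and 2.48% in astrocyte-like cells. In fibroblast-like cells Hpgd had 1 and 31 UMIs, 26 of the 31 in cluster 15.

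**Figure D5:**
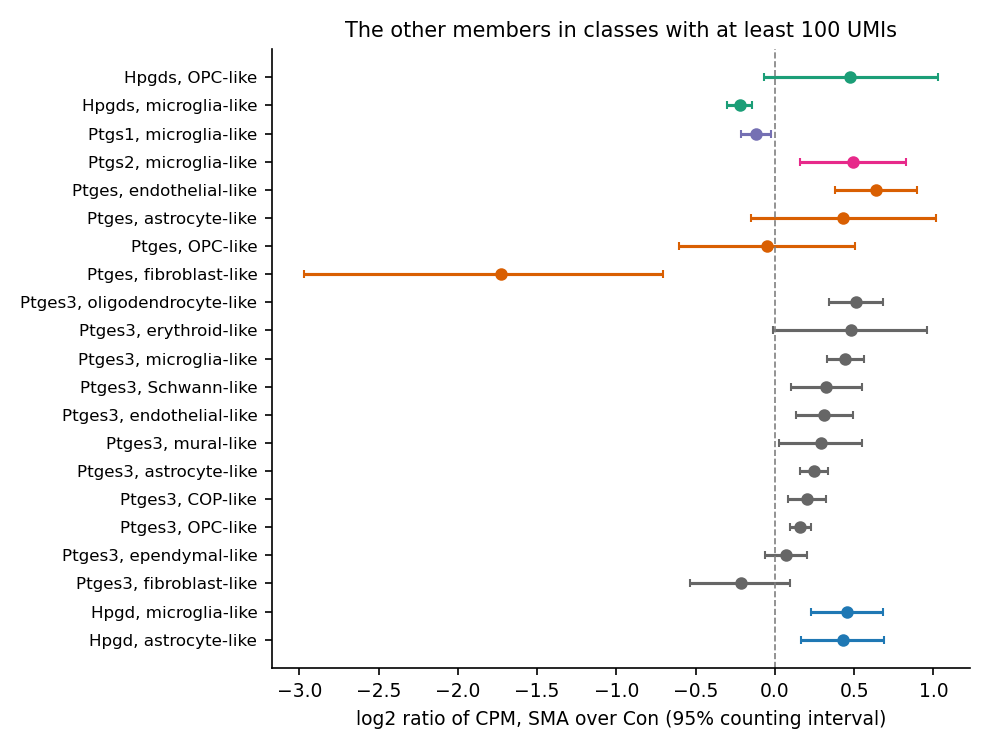
Log2 ratio of CPM, SMA over Con, with 95% counting intervals, for the 6 genes other than Ptgds in each class with at least 100 UMIs and a UMI in both libraries. Ptges lies below 0 in fibroblast-like cells (-1.73) and above 0 in endothelial-like cells (0.64), and the Ptges3 values lie between -0.21 and 0.51.

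The wider pathway was read from 5 lists of prostanoid and leukotriene genes and 1 of Hsp90 co-chaperones. In the 5 lists 24 genes had at least 100 UMIs in a class, giving 92 values over 11 classes, of which 0 were higher and 4 lower by the rule, with a median of 0.01. Over all genes of the 11 classes 0.871% of 65188 values were higher and 1.25% lower. Ptgis, the prostacyclin synthase, had 30 UMIs in SMA and 622 in Con fibroblast-like cells, a log2 ratio of -2.13 (-2.71 to -1.60), which was -0.87 (-1.49 to -0.29) within cluster 24. It was also lower in mural-like cells, with 2 and 99 UMIs. Ptgfrn, a regulator of the prostaglandin F receptor, was at -1.19 (-2.14 to -0.37) in fibroblast-like cells and -1.12 (-2.10 to -0.25) within cluster 24. Ptger1, a receptor of prostaglandin E2, was at -1.12 (-1.89 to -0.43) in COP-like cells, with 20 and 115 UMIs. Of 76 values of the 8 Hsp90 genes, the partners of p23, 1 was higher by the rule and 0 lower. That was Fkbp5 in astrocyte-like cells, where 92 UMIs against 49 gave 1.28 (0.77 to 1.81) in log2. Of the 9 genes of prostanoid receptors 0 reached 100 UMIs in fibroblast-like, astrocyte-like and microglia-like cells, and in endothelial-like cells 1 did, the thromboxane receptor gene Tbxa2r, with 55 and 59 UMIs. Tbxa2r was higher in mural-like cells, with 99 UMIs in the SMA and 536 in the Con library, or 180 and 300.1 CPM, at a log2 ratio of -0.74 (-1.06 to -0.42).

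The genes whose levels were most like those of Ptgds were found over 24 groups of class and library, by Pearson's r of log2(CPM + 1) across 14281 genes with at least 100 UMIs. The 10 genes were Gm2115 (0.89), Crabp2 (0.89), Aldh1a2 (0.88), Slc13a4 (0.86), Osr1 (0.85), Moxd1 (0.85), Penk (0.82), Aldh1a7 (0.82), Cldn1 (0.81) and Wnt6 (0.80). The groups of 1 library share depth and stray RNA, and the values are a description. Aldh1a2, which makes retinoic acid, had 360 CPM in SMA and 40.4 CPM in Con fibroblast-like cells, with 25 of its 212 SMA UMIs in the 3 cells of most Ptgds. Crabp2, which carries retinoic acid, had 231 and 39.0 CPM. Wnt6 had 331 and 30.4 CPM, with 68 of 195 SMA UMIs in those 3 cells, and Penk, Aldh1a7 and Cldn1 had 0 UMIs in them. Penk, the proenkephalin gene, went the other way, at 124 CPM in SMA and 216 CPM in Con fibroblast-like cells. The Con levels include cluster 15, which held no SMA cell.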

How the data were processed

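Spinal cord cells of 1 library labelled SMA and 1 labelled Con were analysed. The deposited values were raw counts of UMIs for each gene in each barcode, which the authors made from 10x 3′ libraries with Cell Ranger (version 4.0.0 in the file headers), on mm10 per the submitters' processing notes, which also name Seurat 3.2.2. Counts had no correction for depth.

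SMA barcodes also listed in Con were left out, as were barcodes with under 200 or over 4000 genes or 10% or more mitochondrial counts, and 1 cluster with a median ribosomal share over 30% (1335 Con barcodes). Doublets were limited only by the 4000 genes. Counts were scaled to 10000 per cell and clustered by Louvain (resolution 1, 2000 variable genes, 30 components, 20 neighbours) with Python 3.11.15, scanpy 1.11.5 and python-igraph 0.11.9, and the 7 genes, the pathway lists, Smn1 and the sex-linked, ribosomal and mitochondrial genes were kept out of the clustering. Classes were named by fixed markers among the 60 leading genes. A cluster with no marker among them took the class with most markers detected in 10% of its cells at 2-fold or more. Clusters 8, 9 and 19 (OPC-like), 21 and 28 (astrocyte-like) and 27 (microglia-like) were named in this second way. The members and lists were chosen with earlier results of these data known.

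UMIs were summed per class and library. Intervals at 95% were exact Poisson for levels, Clopper-Pearson for shares and conditional binomial for ratios. They cover counting error only, since amplified reads of 1 pool are no replicates, and no test between libraries was made. A count of 0 was given a limit of 3 counts. Classes with at least 50 cells per library were compared. A value was called at a log2 ratio of 1 or more with its interval off 0 and 100 UMIs. The ratio and its interval were tried on simulated independent Poisson counts. That simulation shares the assumption of the interval and leaves out UMIs clumped in few cells, so it cannot speak for the Ptgds intervals. Named genes included the 7 members, pathway genes past that ratio, the 10 most like Ptgds, Smn1 and the sex-linked and haemoglobin genes. Tbxa2r was also named, although it did not pass that ratio. Alternatives were other filters, depths, scalings, resolutions and Con subsets. The study's bulk RNA-seq was not analysed here.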

Additional observations from a re-analysis of the deposited data

Results flagged for a closer look

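Ptges had log2 ratios of opposite sign in 2 classes, with a value of 0.64 in endothelial-like cells (255 and 242 UMIs) and of -1.73 in fibroblast-like cells (8 and 126 UMIs). The difference between the classes was not tested, and each class is 1 library per group. The fibroblast-like value compares partly different cells, since 71 of the 126 Con UMIs lay in cluster 15, which held no SMA cell. Within cluster 24, which held both libraries, the log2 ratio was -1.49 (-2.77 to -0.41). In the sub-cluster that held Ptgds the levels were 15.7 and 12.9 CPM, from 7 and 8 UMIs.

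Ptgds was also present in SMA barcodes that the filters left out, above the same barcodes of the Con library. In barcodes with 10% or more mitochondrial counts it was at 138 CPM (132 to 143) in the SMA library and at 5.55 CPM (4.55 to 6.70) in the Con library. The highest of these SMA barcodes had 1285 Ptgds UMIs, 20.3% of its UMIs, with 16 UMIs of Slc6a13. In barcodes with over 4000 genes it was at 704 CPM (687 to 722) and 4.26 CPM (3.35 to 5.35). Of the 6312 SMA UMIs there, 1 barcode of 27794 UMIs held 6103, with 37 UMIs of Slc6a13 and 123 of the fibroblast markers. Of the barcodes left out, other than the shared ones, 13 SMA barcodes and 0 Con barcodes had at least 20 Ptgds UMIs. Of these 13 SMA barcodes, 8 had 0 to 3 UMIs of the fibroblast markers and 0 or 1 of Slc6a13. Among the 8, 1 had 21 UMIs of astrocyte markers and 2 of fibroblast markers. The 8 held 940 to 9990 UMIs in all, at mitochondrial shares of 10.7% to 33.2%. Shallow barcodes can show few marker UMIs, and the deepest of the 8 had 0 of the fibroblast markers.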

How the results depend on the processing

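Ptgds in fibroblast-like cells kept its direction in 17 of 17 alternatives and stayed past a log2 ratio of 1 in each. From 7.35 it moved to 6.81 with shared barcodes kept, 7.53 with no upper limit of genes, 6.68 in cells of at least 5000 UMIs, 7.86 when thinned, 7.83 with cells weighted equally, 8.51 and 6.04 against Con cells with Y-linked UMIs or Xist alone, and 6.40 without sub-clusters under 1% SMA. Alternatives chosen after seeing the data gave 5.57 within the sub-cluster of most Ptgds UMIs, 3.98 without 3 SMA cells and 11.71 without the 3 highest cells of each library. Ptgds in astrocyte-like cells was above 0 in 15 of 15 alternatives. From 3.20 it moved to 2.54 with the high-ribosome cluster kept, 5.09 against Con cells with Y-linked UMIs, 0.70 without 2 SMA cells (no longer past a log2 ratio of 1) and 1.04 without the 2 highest cells of each library, the last 2 also chosen after seeing the data.

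Without a limit of 100 UMIs the genes called rose from 196 higher and 520 lower to 873 and 789 in fibroblast-like cells, from 44 and 39 to 192 and 167 in astrocyte-like cells, and from 35 and 9 to 153 and 93 in OPC-like cells, since more genes were read. Of the 10 genes most like Ptgds by Pearson's r, 1 was among the 10 by Spearman's rho (Gm2115). Of 290 alternative values of the other 6 members in 22 class results, 274 stayed within the counting interval of the value reported, 16 moved and 0 of the called ones reversed. For Ptgs2 in fibroblast-like cells, a bound without an interval, a change under 1 in log2 counted as unmoved. That bound went from -4.72 to -1.64 when thinned, -0.28 without sub-clusters under 1% SMA and -0.30 within cluster 24. Ptgds in OPC-like and oligodendrocyte-like cells moved in 4 of 28 values, to 0.52 in OPC-like cells against Con cells with Y-linked UMIs, and in oligodendrocyte-like cells from 3.40 to 2.08 with no upper limit of genes and at resolution 0.5 and to 5.11 with cells weighted equally. Ptgs2 in fibroblast-like cells could not be computed against Con cells with Y-linked UMIs alone or with cells weighted equally. No paired analysis was possible because each group has 1 library. Depth limits Ptgds in astrocyte-like and OPC-like cells, where most positive cells had 1 UMI.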
